A study of Rattus norvegicus with 24 samples.

Results

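Genes of the meninges and the choroid plexus were followed in RNA-Seq of rat frontal cortex. The list held 10 genes, Ttr, Igf2, Dcn, Col1a1, Col1a2, Slc6a13, Aldh1a2, Ptgds, Bgn and Enpp2. Members were found by gene name among the 32883 reference genes of each rat's table, and 9 of 10 were found, all but Col1a2. The 24 libraries came from adult male Sprague-Dawley rats in a study of an inhaled aerosol of tungsten particles, sampled 24 hours after exposure. The aerosol concentration was 0 mg/m3 in Control, 5 mg/m3 in Low and 80 mg/m3 in High, with 8 rats in each of the 3 groups. Each library is named here by its group and its library number, 49 to 56 in Control rats, 57 to 64 in Low rats and 65 to 72 in High rats. The RNA was polyadenylated RNA of whole tissue, so all cell types of the dissected piece entered each library together.

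The meninges are the membranes that cover the brain. Their fibroblasts secrete collagen I and the small proteoglycans decorin and biglycan, make retinoic acid and prostaglandin D2, and carry solute transporters of the barrier around the brain. The choroid plexus is the tissue in the ventricles that secretes cerebrospinal fluid, and its epithelium makes transthyretin, the carrier of thyroid hormone and of retinol-binding protein, in large amounts. The frontal cortex is covered by meninges, whereas the choroid plexus lies in the ventricles.

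For each rat the authors deposited coverage, the mean read depth per base of a gene, as given by StringTie, a program that assembles aligned reads and estimates transcript levels. Here coverage was divided by its sum over the reference genes of the library and multiplied by 1000000, which is called scaled coverage. It is a level per base, so levels of different genes can be compared. For Igf2 in all libraries and Slc6a13 in some, coverage stood lower against FPKM, another deposited level per length, than for the other members. Comparisons of their levels with those of other genes are therefore less certain. Summed coverage, in units of 1000000, was 1.67 to 2.82 in Control rats, 1.64 to 3.07 in Low rats and 1.77 to 2.67 in High rats, and mitochondrial genes took 21.8% to 33.8% of it. The tables hold no read counts, so counting error is not known. The Control and High tables list loci assembled from each rat's reads beside the reference genes and the Low tables do not, so an effect of the Low exposure and of the kind of table cannot be told apart. Genes of cortical excitatory neurons, the defining cells of the labelled tissue, summed to a scaled coverage of 1333 to 4500.2 in these rats. Libraries 56 to 62, 1 of Control and 6 of Low, also stood apart in mitochondrial transfer RNAs. The Low and High comparisons share the 8 Control rats.

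The RefSeq table of rat promoters (build GRCr8) held 5 of the 10 members by symbol, Aldh1a2, Col1a2, Igf2, Ptgds and Ttr. The 250 bases before the start of Aldh1a2 (chr8:80758391-80758640, plus strand) and of Ptgds (chr3:28682979-28683228, minus strand) are shown because these genes, on different chromosomes, varied together across rats as described below. Capitals mark matches to 3 motifs that were searched on both strands, the TATA box (TATAAA), the CCAAT box (CCAAT) and the GC box (GGGCGG).
Aldh1a2: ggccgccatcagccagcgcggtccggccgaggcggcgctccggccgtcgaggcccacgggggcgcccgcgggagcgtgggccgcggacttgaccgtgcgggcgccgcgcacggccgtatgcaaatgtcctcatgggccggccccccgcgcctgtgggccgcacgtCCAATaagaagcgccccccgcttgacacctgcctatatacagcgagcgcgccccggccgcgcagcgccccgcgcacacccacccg
Ptgds: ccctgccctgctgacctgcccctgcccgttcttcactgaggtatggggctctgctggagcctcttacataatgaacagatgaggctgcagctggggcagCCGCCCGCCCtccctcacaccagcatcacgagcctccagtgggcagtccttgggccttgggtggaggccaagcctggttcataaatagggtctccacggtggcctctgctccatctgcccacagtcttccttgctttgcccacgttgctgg
The Aldh1a2 window held 1 CCAAT box, which began 85 bases before the start. The Ptgds window held 2 overlapping GC boxes on the opposite strand, which began 151 and 147 bases before the start. Of all 33469 promoters of the table, 12.9% held a TATA box, 34.0% a CCAAT box and 30.5% a GC box in the same window. The motifs held by these windows were therefore common ones, and no motif of the 3 was found in both.

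The members differed widely in level. Ptgds, which codes for the enzyme that makes prostaglandin D2 in the brain, had a mean scaled coverage of 2086 ± 728 (SD, n = 24), 33.1 times that of the next member. Enpp2 codes for autotaxin, the secreted enzyme that makes lysophosphatidic acid, and had 63.1 ± 10.01. Igf2, the growth factor made by choroid plexus and meninges in the adult brain, had 40.2 ± 20.6. Its ratio of coverage to FPKM was 0.632 to 0.723 of the library's median ratio. With FPKM put on the scale of coverage, Igf2 had 60.5 ± 31.4 and Enpp2 63.2 ± 10.04 (SD, n = 24).

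Below them lay the matrix genes of the fibroblasts, Aldh1a2, Slc6a13 and Ttr. Bgn, biglycan, had a mean scaled coverage of 33.6 ± 8.51, Col1a1, a chain of collagen I, 21.6 ± 7.99 and Dcn, decorin, 15.7 ± 4.41. Aldh1a2, the enzyme of retinoic acid synthesis in the meninges, had 18.1 ± 6.61 and Slc6a13, a transporter of GABA and taurine in the leptomeninges, 7.84 ± 3.52. Ttr had 8.30 ± 14.0, an SD above its mean. In scaled coverage, Ptgds was above Enpp2 and Bgn above Col1a1 in 24 of 24 rats. Enpp2 was above Igf2 and Col1a1 above Aldh1a2 in 21 of 24. Igf2 was above Bgn in 18 of 24 rats, Aldh1a2 above Dcn in 18 of 24 and Dcn above Ttr in 20 of 24. The means of Ttr and Slc6a13 differed by less than their spread. Ttr was above Slc6a13 in 6 of 24 rats although its mean was higher. With FPKM put on the scale of coverage the mean of Slc6a13 was the higher one, at 9.70 against 8.30.

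**Figure D1:**
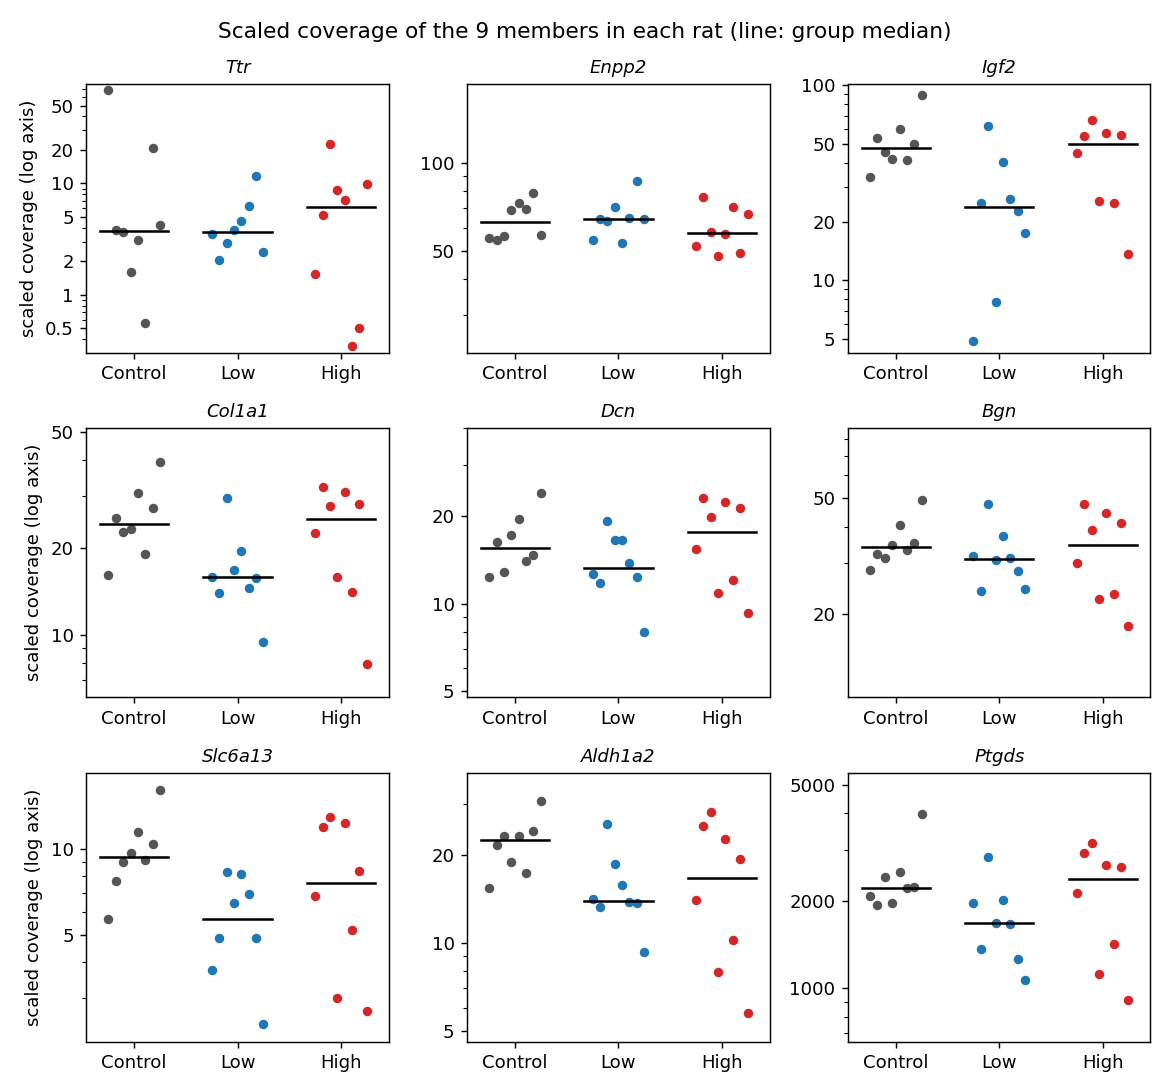
Scaled coverage (log axis) of the 9 members in each of 24 rats, 1 panel per gene, with a point for each rat in order of library number and a line at the group median. Ttr spans 0.348 to 68.4 and Enpp2 48.1 to 87.1, and in every panel the 3 groups overlap.

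In the 3 comparisons, 0 of the 9 members passed the threshold, a Benjamini-Hochberg adjusted p under 0.05 over the 15644 tested genes with limma on log2(scaled coverage + 1), on which the change of a gene with low coverage comes out too small. Exact Wilcoxon rank-sum tests also called 0 of 9 members in each. In Low against Control, limma called 6.11% of all tested genes at that threshold. At an unadjusted p under 0.05 it called 4 of 9 members (Igf2, Slc6a13, Col1a1 and Ptgds) and 18.4% of all tested genes. The log2 fold change was below 0 for 8 of 9 members and for 33.5% of all tested genes, with a median of -0.49 over the members and 0.06 over all genes. Most members varied together across rats, as described below, so counts of members are not of independent genes. In whole tissue, fewer cells of a type and less RNA per cell cannot be told apart.

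Igf2 (chromosome 1, 215828102 to 215846911, minus strand) had the lowest log2 fold change of the members in Low. Its scaled coverage ran from 33.8 to 88.8 (median 47.8) in Control rats, from 4.89 to 61.9 (median 23.8) in Low rats and from 13.7 to 66.1 (median 50.0) in High rats. Of the 8 Low rats, 6 lay below every Control rat, while Low 59 and Low 61 lay within the Control range. In Low against Control it changed by -1.26 on the log2 scale (SE 0.39, 95% interval -2.07 to -0.46), with an adjusted p of 0.0558 in limma, just short of the threshold. Whether it passed depended on the processing. The adjusted p was 0.0296 with median-of-ratios scaling, 0.0426 with mitochondrial genes left out of the sum, 0.0310 in TPM and 0.0315 with FPKM on the scale of coverage, but 0.0803 without scaling, 0.0963 with only the groups compared and 0.152 with the exact Wilcoxon test. It was 0.180 with libraries 56 to 62 as a covariate. In High the log2 fold change of Igf2 was -0.37 (SE 0.39, adjusted p 0.999 in limma), with 3 of 8 rats below every Control rat.

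Igf2 shares its span with another annotated gene. A reference gene of 263 bases on the same strand, AC098563.1, lies within its span. The scaled coverage of AC098563.1 was 63.4 to 173 in Control rats, 28.7 to 133 in High rats and 0 to 0.358 in Low rats. It was above 0 in 2 Low rats, Low 57 and Low 60, which were also the 2 rats with the lowest Igf2 of all 24, at 4.89 and 7.72. Whether the assignment of reads between the overlapping genes has a part in the Igf2 values of Low was not tested. Leaving out Low 57 gave a log2 fold change of -1.0001 (adjusted p 0.113 in limma) and leaving out Low 60 gave -1.08 (adjusted p 0.124), while it passed without Low 59 (-1.49, adjusted p 0.0171) or Low 61 (-1.40, adjusted p 0.0368).

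Slc6a13 (chromosome 4, 153874852 to 153912155, plus strand) had a scaled coverage of 5.66 to 16.1 (median 9.40) in Control rats, 2.43 to 8.31 (median 5.68) in Low rats and 2.70 to 12.9 (median 7.58) in High rats. The groups overlapped, with 4 of 8 Low rats below every Control rat. Against Control, its log2 fold change was -0.72 (SE 0.27, adjusted p 0.137 in limma) in Low and -0.41 (SE 0.27, adjusted p 0.999) in High. The relation between its deposited columns differed between tables. Its ratio of coverage to FPKM, relative to the library's median ratio, was within 1% of 1 in 5 of 8 Control and 4 of 8 High tables, and was 0.605 to 0.628 in the Low tables. With FPKM put on the scale of coverage, its mean was 10.9 ± 2.85 (SD, n = 8) for Control rats, 9.23 ± 3.33 for Low rats and 8.98 ± 4.77 for High rats, and the log2 fold change in Low was -0.26 (adjusted p 0.579 in limma). That difference of columns moved the size of the change more than 1.5 times.

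For the collagen and proteoglycan genes the ratio of coverage to FPKM was within 1% of the library's median in 8 of 8 tables of each group. Col1a1 (chromosome 10, 82745801 to 82762789, plus strand) had a scaled coverage of 16.05 to 39.5 (median 24.2) in Control rats, 9.48 to 29.5 (median 15.8) in Low rats and 7.98 to 32.4 (median 25.04) in High rats. Of the 8 Low rats, 5 lay below every Control rat and 3 within the Control range. Its log2 fold change was -0.57 (SE 0.24, adjusted p 0.190 in limma) in Low and -0.25 (SE 0.24, adjusted p 0.999) in High. Bgn (chromosome X, 157319046 to 157331204, minus strand) lay at 28.3 to 49.6 in Control rats, 23.9992 to 47.9 in Low rats and 18.3 to 47.99 in High rats. Dcn (chromosome 7, 38742051 to 38782323, plus strand) lay at 12.4 to 24.03, 7.96 to 19.2 and 9.25 to 23.1 in the same order. The groups overlapped for both proteoglycans, and 3 Low rats lay below every Control rat for Bgn and 2 for Dcn. In Low the log2 fold change was -0.17 for Bgn (95% interval -0.53 to 0.20) and -0.23 for Dcn (-0.62 to 0.15), and in High it was -0.14 for Bgn (-0.51 to 0.22) and 0.00 for Dcn (-0.39 to 0.38).

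The values of both enzymes of the fibroblasts, Ptgds and Aldh1a2, overlapped between the groups. Ptgds (chromosome 3, 2686123 to 2689084, minus strand) had a scaled coverage of 1938 to 3964 (median 2221) in Control rats, 1070 to 2817 (median 1675) in Low rats and 912 to 3158 (median 2371) in High rats. Aldh1a2 (chromosome 8, 77640222 to 77719489, plus strand) had 15.4 to 30.8 (median 22.5) in Control rats, 9.30 to 25.7 (median 14.0) in Low rats and 5.73 to 28.3 (median 16.7) in High rats. For each gene 5 of 8 Low rats lay below every Control rat. In Low the log2 fold change was -0.50 for Ptgds (SE 0.24, adjusted p 0.258 in limma) and -0.49 for Aldh1a2 (SE 0.25, adjusted p 0.302). In High it was -0.28 for Ptgds and -0.51 for Aldh1a2, the largest decrease of the members in High (95% interval -1.03 to 0.01, adjusted p 0.999 in limma).

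Enpp2 (chromosome 7, 94480396 to 94563001, minus strand) was the steadiest member. Its scaled coverage was 54.5 to 78.7 (median 62.7) in Control rats, 53.2 to 87.1 (median 64.1) in Low rats and 48.1 to 76.6 (median 57.6) in High rats. The groups overlapped, with 3 of 8 High rats below every Control rat and 1 of 8 Low rats below and 1 above all of them. Against Control, the log2 fold change was 0.02 in Low (95% interval -0.20 to 0.25, adjusted p 0.929 in limma) and -0.10 in High (-0.33 to 0.12, adjusted p 0.999).

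Ttr (chromosome 18, 15532963 to 15540177, minus strand) was the most variable. Its scaled coverage was 0.554 to 68.4 (median 3.75) in Control rats, 2.07 to 11.6 (median 3.69) in Low rats and 0.348 to 22.6 (median 6.12) in High rats, a 197-fold range over the 24 rats. A few rats carried most of it, with 68.4 in Control 49, 22.6 in High 67 and 20.8 in Control 55. The groups overlapped, with 2 High rats (0.348 and 0.501) below every Control rat. Its log2 fold change was -0.34 in Low (95% interval -1.70 to 1.02, adjusted p 0.819 in limma) and -0.28 in High (-1.64 to 1.08, adjusted p 0.999), and the interval was wide in both directions. Without Control 49 the log2 fold change was 0.15 in Low and 0.21 in High, and without High 70 it was 0.0042 in High.

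**Figure D2:**
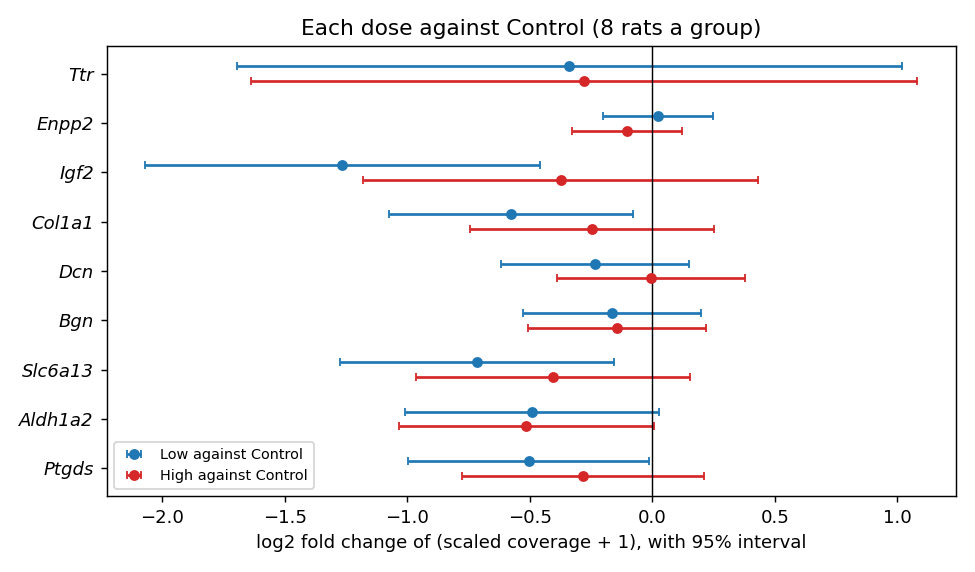
Log2 fold change of (scaled coverage + 1) of each member in Low and in High against the same 8 Control rats, with 95% intervals from limma on the x axis and genes on the y axis. Igf2 in Low is lowest at -1.26, and the widest intervals are those of Ttr.

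In High against Control, limma called 0 of 9 members and 0% of all 15644 tested genes at an adjusted p under 0.05, as did the exact Wilcoxon rank-sum tests. At an unadjusted p under 0.05 it called 0 of 9 members and 2.11% of all genes. The log2 fold change was below 0 for 9 of 9 members and 64% of all genes, with a median of -0.28 over the members and -0.03 over all genes. For Dcn the sign turned under other scalings, with a value of 0.030 under median-of-ratios scaling. Enpp2 (0.079) and Bgn (0.033) were above 0 in coverage that was not scaled. In Low against High, limma called 0 of 9 members and 11.7% of all genes, and at an unadjusted p under 0.05 it called 1 of 9 members and 29.1% of all genes. That member was Igf2, with a log2 fold change of -0.89 (SE 0.39, adjusted p 0.134 in limma). The log2 fold change was below 0 for 7 of 9 members and 30.1% of all genes in Low against High.

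The genes that work beside the members were read from lists of textbook genes. Of 38 tested further genes of meningeal fibroblasts, 1 passed the threshold in Low against Control, 32 had a log2 fold change below 0 and the median was -0.20, against 6.11% called, 33.5% below 0 and a median of 0.06 over all tested genes. That gene was Slc6a20, a proline transporter, with a mean scaled coverage of 5.65 in Control rats, 2.99 in Low rats and 4.50 in High rats (log2 fold change -0.77 in Low, SE 0.16, adjusted p 0.00367 in limma). In High 0 of 38 passed, 34 were below 0 and the median was -0.11, against 0% called, 64% below 0 and a median of -0.03 over all tested genes. Most genes of this list varied together across rats, as described below, so such counts are not of independent genes. The 2 most abundant of the list were Igfbp2, a binding protein of insulin-like growth factors (mean 91.8, -0.58 in Low, adjusted p 0.119 in limma), and Col6a1, a chain of collagen VI (mean 53.7, 0.13 in Low, adjusted p 0.730).

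Genes that act with single members did not pass in either dose against Control. Of all tested genes, 6.11% were called in Low and 0% in High, with a median log2 fold change of 0.06 in Low. Of the genes that fold, modify and cross-link collagen I, 0 of 15 passed in Low (median log2 fold change -0.01), with Sparc, a collagen-binding protein, at 0.02 and Ppib, a collagen-folding isomerase, at 0.06. Of the genes of retinoic acid handling, which include Aldh1a2, 0 of 13 passed (median -0.05), and Rbp4, the carrier of retinol that binds transthyretin, had -0.37 (adjusted p 0.271 in limma). Of the receptors and binding proteins of Igf2, 0 of 10 passed (median 0.07). Of the genes of prostaglandin D2 and lysophosphatidic acid, 0 of 8 passed against Control (median 0.07). In Low against High 1 of those 8 was higher in Low, Ptgs2, an inducible cyclooxygenase that neurons also express (log2 fold change 0.74, SE 0.22, adjusted p 0.0313 in limma). That comparison called 11.7% of all tested genes.

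Markers of neighbouring cell types were set beside these values, to be read against the 6.11% of all tested genes called in Low against Control and the 11.7% called in Low against High. In Low against Control, 1 of 12 pericyte and smooth muscle genes fell, Pdgfrb, the growth factor receptor of pericytes (log2 fold change -0.68, adjusted p 0.000902 in limma), and the list's median was -0.23. The medians of border macrophages (0 of 4 passed), blood (0 of 8) and striatal neurons (0 of 9) were -0.29, -0.25 and -0.57, those of astrocytes (0 of 8), brain endothelium (0 of 8) and ependyma (0 of 4) 0.00, 0.07 and -0.11, and that of cortical excitatory neurons (0 of 9) 0.14. Of 12 oligodendrocyte genes, 2 fell, the gap junction gene Gjb1 (-1.06, adjusted p 0.00535 in limma) and the aspartoacylase gene Aspa (-0.57, adjusted p 0.00121), while 10 were above 0. In Low against High, Pdgfrb, Gjb1 and Aspa were again lower (-0.64, -0.98 and -0.46, adjusted p 0.00136, 0.00706 and 0.00599 in limma) and Slco1a4, a transporter of brain endothelium, was higher (0.33, adjusted p 0.0235). The summed scaled coverage of the striatal list ranged from 476 to 1111 in Control rats, 325 to 810 in Low rats and 241 to 1737 in High rats. The part of these other cell types in the members' values was not tested.

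The spread between rats was larger for most members than for most genes. It was measured as the SD of log2(scaled coverage + 1) around the group means, and its median over all tested genes was 0.218. Ttr had 1.38, and 0.614% of all tested genes had a larger one. Igf2 had 0.820, Slc6a13 0.573, Aldh1a2 0.533, Col1a1 0.511, Ptgds 0.506, Dcn 0.391 and Bgn 0.370, all above that median. Enpp2, with 0.224, lay near it, and 48% of all tested genes had a larger SD. Among 3609 tested genes of like mean level the median was 0.166, and 27.3% had a larger SD than Enpp2.

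The fibroblast members were most spread in High. The SD of Col1a1 was 0.387 for Control rats, 0.435 for Low rats and 0.666 for High rats, and that of Aldh1a2 was 0.297, 0.396 and 0.779. The difference in spread between the groups was not tested. Within High, 5 rats lay at a Col1a1 level of 22.4 to 32.4, and High 68, High 70 and High 72 at 15.8, 14.0 and 7.98. In these 3 rats the lowest 3 values of the group also stood for Bgn (22.7, 23.4 and 18.3), Ptgds (1122, 1419 and 912) and Igf2 (25.6, 24.9 and 13.7).

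**Figure D3:**
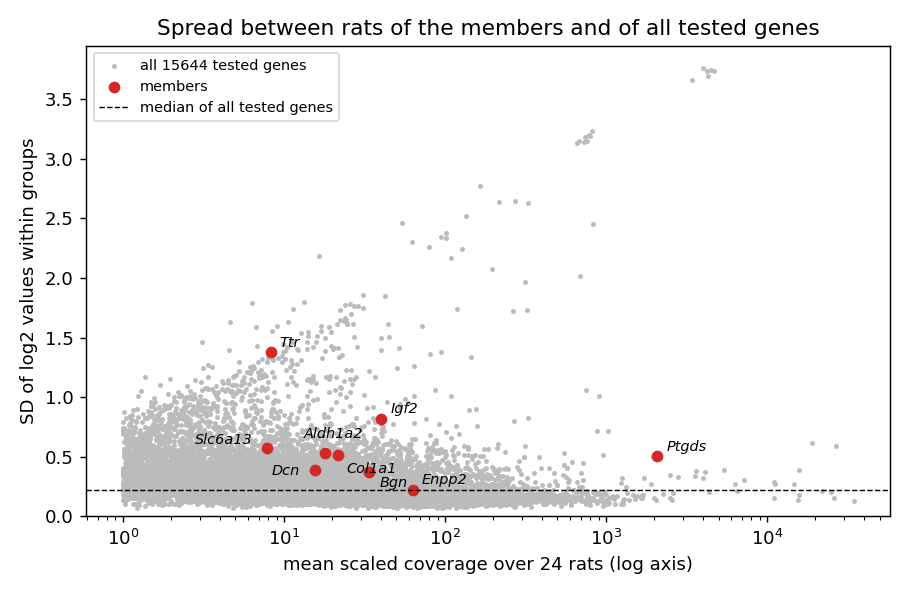
Within-group SD of log2(scaled coverage + 1) against mean scaled coverage over 24 rats (log axis), with grey points for all 15644 tested genes, red points for the 9 members and a dashed line at the median SD of 0.218. Ttr lies at 1.38, 6 fibroblast genes between 0.370 and 0.573, and Enpp2 at 0.224.

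Across rats, 6 members rose and fell together. Correlations were computed over the 24 rats on log2 values with group means subtracted, for all 36 pairs of the 9 members, with two-sided permutation tests within groups and p-values adjusted over the pairs. The 15 pairs among Col1a1, Dcn, Bgn, Slc6a13, Aldh1a2 and Ptgds all passed, with Pearson's r of 0.883 to 0.945 and Spearman's rho of 0.853 to 0.937. For Pearson's r each had a permutation p of 1e-05, the smallest that 100000 permutations can give, and an adjusted p of 2.4e-05. Without the 2 rats farthest from the median of either gene of a pair, r was 0.826 to 0.943.

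The pattern was present in each group by itself. Within Control the 15 values of r were 0.692 to 0.951, within Low 0.729 to 0.955 and within High 0.911 to 0.997. In the 17 libraries outside libraries 56 to 62 they were 0.866 to 0.960, and in Low libraries 57 to 62 they were 0.473 to 0.973. Scaled values share a denominator, and without scaling they were 0.914 to 0.964, with depth then shared. Col1a1 and Bgn were the closest pair, with r of 0.945 and rho of 0.919.

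The same rats stood at the ends of the range for these genes. Control 56 was the highest of all 24 rats for 6 of the 6 genes. High 72 was the lowest for 4 of them and Low 64 for the other 2. Within Low, Low 59 was the highest for 6 of 6. Control 56 also had loci assembled on the opposite strand, 8 over Aldh1a2, 11 over Slc6a13 and 1 each over Dcn, Bgn and Ptgds. Over Col1a1 it had 0, and the part of these loci in its values was not tested. Since the genes moved together, ratios between them varied less than the genes did. The SD of the log2 ratio within groups was 0.134 to 0.292 over the 15 pairs, against 0.442 to 0.595 for Enpp2 with each of the 6 and 1.39 to 1.64 for Ttr with any member.

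Over all 24 rats Igf2 varied with these 6 genes, less closely than they did with each other. With the 6 its r was 0.619 to 0.702 and its rho 0.703 to 0.809, and 6 of 6 pairs passed (adjusted permutation p of 0.000337 to 0.00367). Within Control r was 0.824 to 0.962, within High 0.933 to 0.979 and within Low 0.287 to 0.534. The difference between the groups in r was not tested. Low 57 and Low 60 were the 2 rats farthest from the median of Igf2, and without them r with Col1a1 was 0.971, against 0.701 with them. In these 2 rats Col1a1 was 15.9 and 16.8, close to the Low median of 15.8, while Igf2 lay far below its Low median of 23.8.

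Ttr and Enpp2 followed neither the fibroblast genes nor each other. The r of Ttr with the 6 was -0.11 to 0.01 and that of Enpp2 was -0.18 to 0.09. Of the 15 pairs that hold Ttr or Enpp2, 0 passed the permutation test (adjusted p of 0.730 to 0.987). Between Ttr and Enpp2 r was 0.03 and rho 0.02 (permutation p of 0.888 and 0.919, adjusted p of 0.950 and 0.945).

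**Figure D4:**
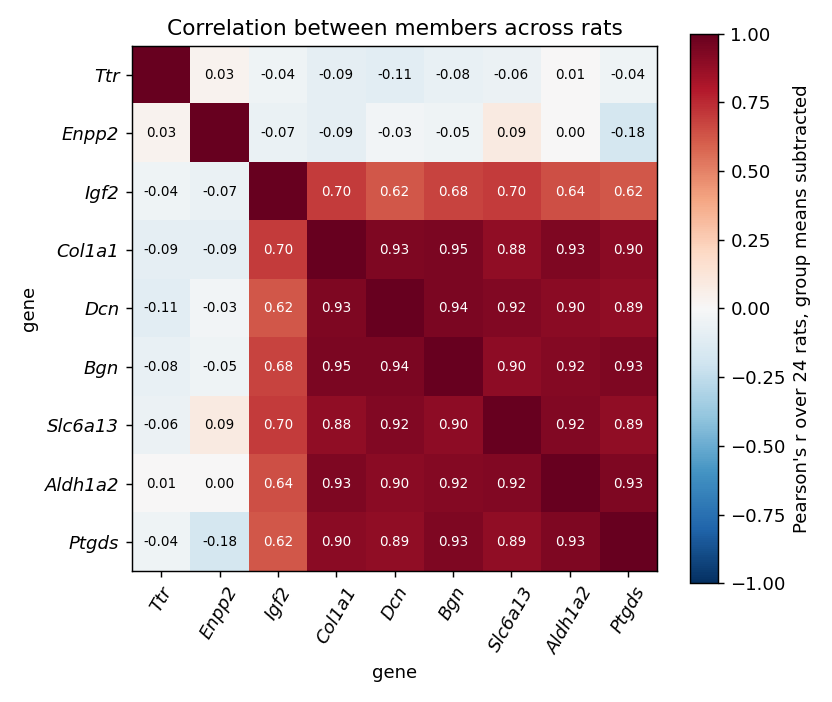
Pearson's r between the 9 members over 24 rats, with group means subtracted from log2(scaled coverage + 1) and the value printed in each cell. The block from Col1a1 to Ptgds lies at 0.883 to 0.945, the row of Igf2 at 0.619 to 0.702 with that block, and the rows of Ttr and Enpp2 near 0.

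**Figure D5:**
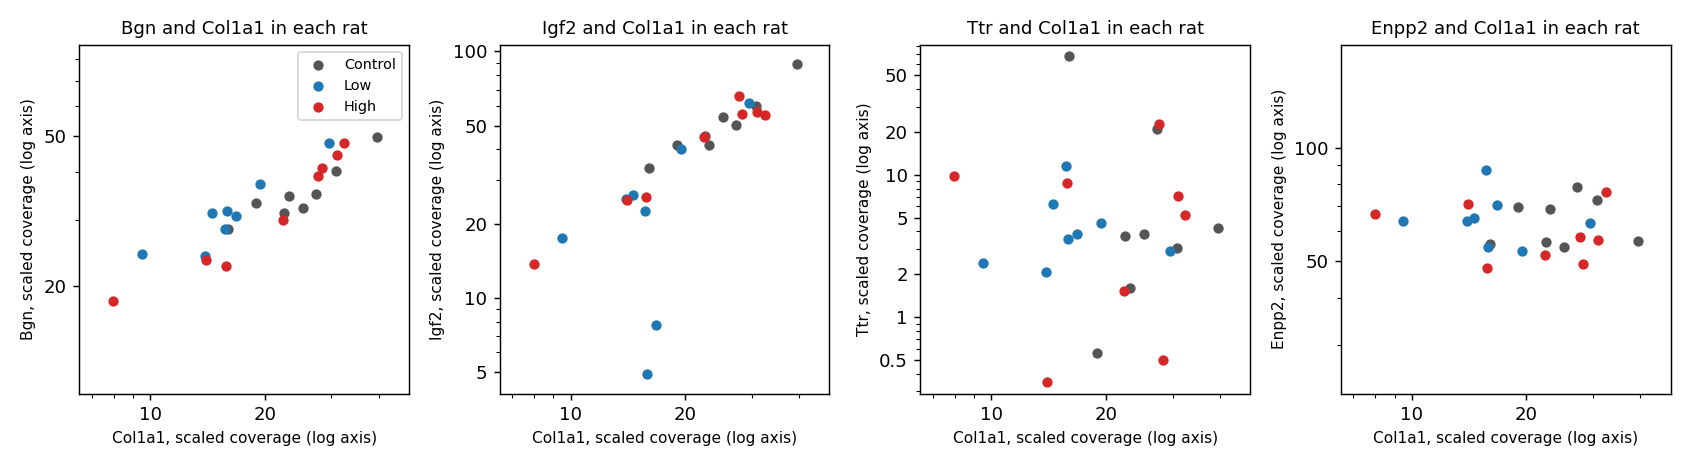
Scaled coverage of Bgn, Igf2, Ttr and Enpp2 against that of Col1a1 in each of 24 rats (log axes, colour by group). Bgn and Igf2 follow Col1a1, apart from Low 57 and Low 60 for Igf2 at 4.89 and 7.72, while Ttr and Enpp2 do not.

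The genes whose values were most like those of each member were read over all 15644 tested genes and 24 rats, as a description. For Col1a1 they were NEWGENE_621351 (r = 0.98), the matrix metalloproteinase Mmp14 (0.95) and the complement inhibitor Serping1 (0.94), and for Bgn NEWGENE_621351 (0.96), vimentin Vim (0.94) and Aebp1 (0.94). For Dcn they were NEWGENE_621351 (0.92), fibulin Fbln1 (0.92) and Vim (0.91). For Aldh1a2 they were the sulfate transporter Slc13a4 (0.95), Fbln1 (0.94) and Bmp6 (0.94), and for Slc6a13 ceruloplasmin Cp (0.95), Slc13a4 (0.94) and the adhesion molecule Vcam1 (0.94). For Ptgds they were fibromodulin Fmod (0.95), Anxa2 (0.94) and Nupr1 (0.93), and for Igf2 Abi3bp (0.84), Arhgap29 (0.83) and Pcdh18 (0.82). Several of these are matrix genes, and which cells they came from was not tested.

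NEWGENE_621351 is the name of 2 reference entries on chromosome 4, with mean scaled coverages of 17.6 and 18.2 and r with Col1a1 of 0.98 for each. One of the entries lies at 29529854 to 29564768 beside Bet1, and RefSeq GRCr8 places Col1a2, the other chain of collagen I, between Bet1 and Casd1. The tables do not name the entries Col1a2, so they were not counted as a member. The reads of near-identical entries can be split between them, so their levels are uncertain. The log2 fold change in Low was -0.55 for each (adjusted p 0.227 in limma), close to the value of Col1a1.

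With Col1a1, 33 of the 38 fibroblast genes had r above 0.5 (median 0.80), against 12.3% of all tested genes (median 0.20). The medians were 0.80 for pericytes and smooth muscle, 0.73 for border macrophages, 0.56 for endothelium, 0.55 for blood, 0.52 for astrocytes, 0.47 for striatal neurons, 0.21 for ependyma, -0.06 for oligodendrocytes and -0.31 for cortical excitatory neurons. All but the last 2 of these medians lay above that of all tested genes. The summed scaled coverage of the fibroblast list was 430 to 781 for Control rats, 391 to 691 for Low rats and 320 to 675 for High rats. The part of any of these in the spread of Col1a1 was not tested.

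Enpp2 followed oligodendrocyte genes instead. Its 3 most similar genes were Erbb3 (r = 0.94), a receptor of the oligodendrocyte lineage, Tmem88b (0.94) and Rnf43 (0.91). With Enpp2, 11 of 12 oligodendrocyte genes had r above 0.5 (median 0.77), against 10.6% of all tested genes (median 0.26), among them the myelin gene Mbp (0.62). The median was -0.02 for the fibroblast genes and -0.04 for the choroid plexus genes. Oligodendrocytes are known to express Enpp2, and here its values went with their genes. The choroid plexus median rests on the 10 genes of that list with a mean of 1 or more. Of these, Slc4a2, which many cell types express, had r of 0.73. Which cells the Enpp2 RNA came from was not tested. The summed scaled coverage of the oligodendrocyte list was 4241 to 6146 for Control rats, 4584 to 8610 for Low rats and 2715 to 6861 for High rats.

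Ttr was set beside other genes of the choroid plexus epithelium. Of 25 listed genes, 24 were found and 10 reached the minimum mean of 1. Of these 10, 0 passed the threshold in any comparison. Over all tested genes 6.11% were called in Low against Control, 0% in High against Control and 11.7% in Low against High. The 10 genes had a median log2 fold change of -0.06 in Low and -0.10 in High, against 0.06 and -0.03 over all tested genes. The other 14 had a mean below 1, and the examples named here were chosen after their values were seen. Otx2, the transcription factor of the epithelium, was at 0 in 11 of 24 rats and at most 2.14, Lmx1a was at 0 in 13 rats and at most 0.262, Kl was at most 0.694, Folr1 2.59, Clic6 1.53 and Prlr 0.0312. Other genes of the list were above 0 in every rat, with means of 3.09 for the potassium channel Kcnj13, 3.13 for the water channel Aqp1 and 3.22 for Kcne2, close to the median of Ttr over all rats (3.83). The summed scaled coverage of the 24 genes was 40.1 to 66.6 in Control rats, 35.5 to 61.9 in Low rats and 36.6 to 60.2 in High rats. Its most abundant genes were Slc4a2 (mean 14.1), an anion exchanger of many cell types, and Wfdc2 (6.37).

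The rats with high Ttr differed in their other choroid plexus genes. Control 49, with Ttr at 68.4, had Folr1 at 0.988, Otx2 at 0.333 and Kl at 0.436. These lay above the means over all rats (0.789, 0.272 and 0.328) and below the highest values (2.59, 2.14 and 0.694). Other genes of the list lay below their means in Control 49. Among them were Kcnj13 (1.82), Aqp1 (1.92), Calml4 (0.849) and Wfdc2 (5.41), with means of 3.09, 3.13, 1.66 and 6.37. High 67, with Ttr at 22.6, was the highest of the 24 rats for Otx2 (2.14), Calml4 (4.79) and Kl. Its Wfdc2 (5.90) and Kcne2 (2.60) lay below their means over all rats (6.37 and 3.22). Control 55, with Ttr at 20.8, was the highest for Wfdc2 (14.4), Tmem72 (0.487) and Lmx1a (0.262). Over the 24 rats the median r of the 10 tested choroid plexus genes with Ttr was -0.14, with a highest value of 0.03. The median over all tested genes was -0.20. Genes below the minimum mean, among them Folr1, Clic6, Otx2 and Kl, had no r computed, so these values cannot check the label of Ttr. The most similar genes to Ttr were AABR07070926.1 (0.73), AABR07010022.2 (0.72) and Trim30c (0.66). The median r with Ttr was 0.28 for blood, 0.24 for ependyma, 0.16 for oligodendrocytes and 0.09 for striatal neurons. For fibroblasts, pericytes and smooth muscle, and border macrophages it was -0.10 each. For astrocytes it was -0.13, for endothelium -0.14 and for cortical excitatory neurons -0.46. In each of these lists 0 genes had r above 0.5, and their part in the Ttr values was not tested. Of the choroid plexus list, Kcnj13 and Aqp1 followed Col1a1 with r of 0.83 and 0.81, more closely than Ttr (-0.19 and 0.00). These were the highest r with Col1a1 in the list. Over its 10 tested genes the median was 0.38 and the lowest -0.09, with 5 genes above 0.5. The median over all tested genes was 0.20.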

How the data were processed

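Libraries were stranded and made from polyadenylated RNA of rat frontal cortex, although the extraction text mentions cell lines. The submitters' processing notes name FastQC, Trimmomatic, TopHat2, StringTie and the build mRatBN7.2; the sources used here give no versions, and positions are those of the tables, whose build was not settled. The authors deposited, for each rat, coverage (mean read depth per base, unscaled), FPKM and a TPM column used here as a score, since the deposited values sum to 1000000 only in the Low tables. Coverage was summed per reference gene identifier, divided by the library's sum and multiplied by 1000000. Genes were kept at a mean of 1 or more over the rats, and these 15644 were fitted with limma 3.58.1 (trend, robust, R 4.3.3) on log2(value + 1) with the 3 groups in 1 fit, two-sided, and Benjamini-Hochberg adjustment over all tested genes. Nothing in the labels says more of the rats than their group, so the p-values measure the spread between these libraries. Correlations used 100000 permutations within groups, drawn in Python 3.11.15 with numpy 2.4.6. Both steps were tested on simulated data.

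The members, the lists and the tests were chosen with earlier results of these data known. Named genes are the members, list genes past the threshold, the 2 most abundant genes of a list and the 3 genes most similar to each member. The choroid plexus genes set beside single Ttr values, and Kcnj13, Aqp1 and Kcne2, were chosen after their values were seen. Values of 1 list gene are not reported here. Where a symbol had 2 identifiers, that with the higher mean was used. Alternatives were other scalings, columns, filters, pseudocounts and samples, an exact Wilcoxon rank-sum test and leaving out each rat. FPKM on the scale of coverage and the correlations outside libraries 56 to 62 were added after seeing the data.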

Additional observations from a re-analysis of the deposited data

Results flagged for a closer look

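In 4 of 27 sets of values (9 members in 3 groups), 1 rat lay far from the others of its group by Dixon's criterion. The criterion was applied to scaled coverage without logs, and log2 values draw high values closer. Chance alone gives about 1.35 such sets if values are independent and normally distributed. Members varied together and Ttr was skewed, so that number is only a rough guide. Ttr was 68.4 in Control 49, while the other Control rats lay at 0.554 to 20.8. It was 11.6 in Low 63, against 2.07 to 6.24 in the other Low rats, and 22.6 in High 67, against 0.348 to 9.84 in the other High rats. Ptgds was 3964 in Control 56, against 1938 to 2510 in the other Control rats. Control 56 was also the highest rat for the other 5 fibroblast members. It belongs to libraries 56 to 62, which stood apart in mitochondrial transfer RNAs.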

How the results depend on the processing

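No paired analysis was possible because the groups share no replicate numbers, each library number from 49 to 72 being used once. The tables hold no read counts, so precision at low levels, as for most choroid plexus genes and for Ttr in some rats, is not known. The kind of table differs between Low and the other groups and cannot be told apart from the exposure. The change of Slc6a13 in Low was -0.72 in coverage and -0.26 with FPKM on the scale of coverage. The cause of the changes below was not tested.

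Members past the threshold in Low against Control numbered 1 with median-of-ratios scaling, with the sum without mitochondrial genes, in the TPM column and with FPKM on the scale of coverage (Igf2, at -1.32, -1.26, -1.19 and -1.29, adjusted p in limma 0.0296, 0.0426, 0.0310 and 0.0315) and 1 in the FPKM column (Enpp2, higher at 0.53). The FPKM column moved the median log2 fold change of all tested genes from 0.06 to 0.53 in Low against Control and from 0.09 to 0.52 in Low against High, so Enpp2 lay near that median. TPM moved it to 0.17 in Low against Control, and without scaling it was 0.14 in High against Control and -0.12 in Low against High. Over all alternatives with every rat the adjusted p of Igf2 was 0.0296 to 0.180. In Low against High 2 members passed in the FPKM column, Enpp2 (0.58) and Bgn (0.41), and 0 in the other alternatives. In High against Control 0 members and 0 genes passed in any alternative. Leaving out each rat gave 0 to 1 members in Low against Control and 0 in the other comparisons.

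Of all tested genes, those past the threshold in Low against Control (956) became 556 with a minimum mean of 5, 1759 without mitochondrial genes in the sum, 12393 in FPKM, 3952 in TPM, 566 with only the groups compared, 361 with libraries 56 to 62 as a covariate, 2086 with FPKM on the scale of coverage and 372 with exact Wilcoxon tests. Low against High (1828) became 1192 with a minimum mean of 5, 12410 in FPKM, 3927 in TPM, 354 with the covariate, 3296 with FPKM on the scale of coverage and 1147 with exact Wilcoxon tests. Calls in Low against Control were 192 higher and 764 lower, against 858 and 901 without mitochondrial genes in the sum and 3178 and 774 in TPM. Without 1 rat each they were 676 to 1224 and 1266 to 2479.

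Of 324 log2 fold changes of members under other alternatives, 29 turned sign. In Low against Control these were Enpp2 (-0.011 without scaling, -0.035 with median-of-ratios scaling) and, in FPKM, Dcn (0.23), Bgn (0.32), Slc6a13 (0.19) and Ptgds (0.011). In High against Control they were Enpp2 (0.079), Dcn (0.17) and Bgn (0.033) without scaling, and Dcn with median-of-ratios scaling (0.030), without mitochondrial genes (0.018), in FPKM (0.0428), in TPM (0.0429) and with the covariate (0.067). In Low against High they were Ttr with a pseudocount of 0.1 (0.16), in FPKM (0.14) and with the covariate (0.26), Enpp2 without scaling (-0.090), Col1a1 (0.097), Dcn (0.19), Bgn (0.41), Slc6a13 (0.44) and Ptgds (0.24) in FPKM, Bgn (0.026) and Slc6a13 (0.15) in TPM, Slc6a13 with FPKM on the scale of coverage (0.11), and Aldh1a2 without scaling (-0.18), with median-of-ratios scaling (-0.065) and with the covariate (-0.37). Leaving out each rat, signs turned for Enpp2 (-0.037 to 0.067) and Ttr (-0.63 to 0.15) in Low against Control, Dcn (-0.077 to 0.099) and Ttr (-0.59 to 0.21) in High against Control, and Aldh1a2 (-0.15 to 0.15), Bgn (-0.13 to 0.063) and Ttr (-0.34 to 0.25) in Low against High. Without Control 49, Ttr had 0.15 in Low and 0.21 in High against Control.

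The SD between rats moved without scaling for Enpp2 (0.358), Col1a1 (0.613), Dcn (0.515), Bgn (0.481), Slc6a13 (0.708), Aldh1a2 (0.674) and Ptgds (0.620), and in FPKM for Ttr (1.10), Enpp2 (0.195), Dcn (0.338) and Slc6a13 (0.453). The number of pairs past the threshold was 21 of 36 in each alternative and without each rat.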
